A study of Mus musculus with 18 samples.

Results

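Sodium entry through the epithelial sodium channel (ENaC) was examined in mouse skin through 5 genes: the channel subunits Scnn1a, Scnn1b and Scnn1g, the ubiquitin ligase gene Nedd4l, and Atp1b1, which encodes a beta subunit of the sodium pump. They are 5 of the 52958 gene symbols counted in dermal papilla cells (DP) and of the 27933 counted in hair follicle stem cells (HFSC), and all 5 passed the filter on low counts in both. Scnn1g was chosen by its measured values in DP, where it stood higher after adrenalectomy and lower after deletion of the glucocorticoid receptor. The other 4 genes were taken because they act with it. In DP, therefore, the values of Scnn1g are a description and carry no test.

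The data are RNA-seq profiles of 18 libraries in 9 groups of 2, all from female mice, from cells purified by flow cytometry. By its title, the study asks whether the stress hormone corticosterone acts on HFSC quiescence through Gas6. In the surgery experiment, C57BL/6 wild-type mice were sham-operated (Sham) or adrenalectomised (ADX), and for HFSC a further group was adrenalectomised and fed corticosterone (ADX+CORT). In the deletion experiment the mice were of 129/C57BL/6 background. The GR KO group carried Pdgfra-CreER with floxed glucocorticoid receptor alleles (GR fl/fl), and the Control group is labelled wild type. Both received tamoxifen by injection for 6 days. Sham and Control thus differ in strain and in tamoxifen, which cannot be told apart. Pdgfra is expressed by dermal cells, so in the GR KO mice the HFSC are not the cells in which the Cre is expected to act. The labels do not say whether the 2 replicates of a group came from separate mice, and p-values measure only the spread between these libraries.

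ENaC is built from an alpha, a beta and a gamma subunit, encoded by Scnn1a, Scnn1b and Scnn1g, and lets sodium enter a cell from its outer face. It is best known from the kidney collecting duct, the colon, the lung and the sweat duct, and is also made in the epidermis. Nedd4l binds the channel and marks it for removal from the membrane, and the kinase Sgk1 restrains Nedd4l. The sodium pump then moves sodium out of the cell. Corticosteroid hormones are known to regulate ENaC through the mineralocorticoid and glucocorticoid receptors, and adrenalectomy removes the main source of both aldosterone and corticosterone.

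Scnn1g (ENSMUSG00000000216.8) lies on chromosome 7 of GRCm38, from 121734479 to 121768475 on the plus strand. Scnn1b (ENSMUSG00000030873.9) follows it on the same strand, from 121865038 to 121918514, with 96.6 kb between the genes. Because these subunit genes are neighbours and had the same sign as each other in both DP comparisons, the 250 bases before each start are shown, from the RefSeq table on GRCm38.p6, at chr7:121734229-121734478 for Scnn1g and chr7:121864788-121865037 for Scnn1b. Capitals mark the GC box, GGGCGG or CCGCCC on the other strand.
Scnn1g: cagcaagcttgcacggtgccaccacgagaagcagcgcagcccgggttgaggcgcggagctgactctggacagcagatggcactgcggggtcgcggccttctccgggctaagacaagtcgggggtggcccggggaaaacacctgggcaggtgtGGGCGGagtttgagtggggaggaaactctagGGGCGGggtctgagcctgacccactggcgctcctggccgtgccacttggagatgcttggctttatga
Scnn1b: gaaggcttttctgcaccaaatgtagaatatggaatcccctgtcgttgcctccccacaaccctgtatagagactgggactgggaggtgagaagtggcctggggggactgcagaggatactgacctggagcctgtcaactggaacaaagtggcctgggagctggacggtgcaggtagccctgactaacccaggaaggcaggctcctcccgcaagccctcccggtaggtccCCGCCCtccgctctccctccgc
The window of Scnn1g held 2 GC boxes and that of Scnn1b held 1, a motif found in 32.7% of the 32851 mouse promoter windows of that length. Neither window held TGTTCT, a half-site of the glucocorticoid receptor motif, or its reverse complement AGAACA. At least 1 of these is held by 16.1% of windows. A match is a description of letters, and their absence from this window says nothing about the receptor. Of the 5 genes, 3 had an entry in the table. The third, Atp1b1, held 2 GC boxes and no receptor half-site.

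Atp1b1 (ENSMUSG00000026576.12) lies on the minus strand of chromosome 1, from 164437109 to 164458355, and its exons overlap those of Nme7 on the other strand. Scnn1a (ENSMUSG00000030340.16) lies on chromosome 6, from 125320659 to 125344943, and Nedd4l (ENSMUSG00000024589.17) on chromosome 18. Exons of Nedd4l overlap the antisense gene A330084C13Rik. The library chemistry does not mark strand, so reads of Atp1b1 and Nme7, and of Nedd4l and its antisense gene, cannot be told apart where exons overlap. Scnn1b overlaps Cog7 only outside exons, and Scnn1g overlaps no annotated gene.

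The libraries held 6194705 to 13941962 counts in DP and 14067139 to 33014976 in HFSC. In DP, the ADX libraries held 6194705 and 7784534 counts, and every other library at least 11329495. Levels below are CPM values, the usual depth-normalised unit of RNA-seq, in which reads are divided by the scaled size of their library. The deleted gene Nr3c1, which encodes the glucocorticoid receptor, had 137 and 111 CPM in the GR KO libraries of DP, against 671 and 978 CPM in Control, and fell by 2.73 on the log2 scale (edgeR adjusted p = 0.0212). All 10 DP marker genes had reads in every DP library, with a summed level of 3397 to 5766 CPM in Control and 1604 to 2151 CPM in GR KO. The lower sum does not hold for most of the list, as 6 of the 10 had a higher and 4 a lower value in GR KO. Their median log2 fold change was 0.22, against 0.17 over all genes tested. The 8 dermal fibroblast markers summed to 12035 to 17715 CPM in Control and 40817 to 53768 CPM in GR KO. In the HFSC libraries, the 9 HFSC markers summed to 40511 to 45576 CPM in Sham, 19284 to 27760 CPM in ADX, 38371 to 41743 CPM in ADX+CORT, 41860 to 45230 CPM in Control and 20419 to 25080 CPM in GR KO, with none at 0. In bulk samples, fewer cells of a type and less RNA per cell cannot be told apart.

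Scnn1g in DP was nearly absent in Sham and present in every other group. No read was found in Sham replicate 1, which allows up to 0.261 CPM (3 counts), and 1 read, or 0.0805 CPM, in replicate 2. After adrenalectomy the 2 libraries held 139 and 151 reads, or 19.3 and 17.7 CPM. Control libraries stood at 17.7 and 26.8 CPM and GR KO libraries at 2.35 and 3.17 CPM. The groups of each comparison did not overlap. In order, Control averaged 22.2 ± 6.45 CPM (SD, n = 2), ADX 18.5 ± 1.15, GR KO 2.76 ± 0.577 and Sham 0.0403 ± 0.0569, and Control and ADX did not differ beyond their spread. The reference groups of the 2 experiments, Sham and Control, were thus at the opposite ends of this order.

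**Figure D1:**
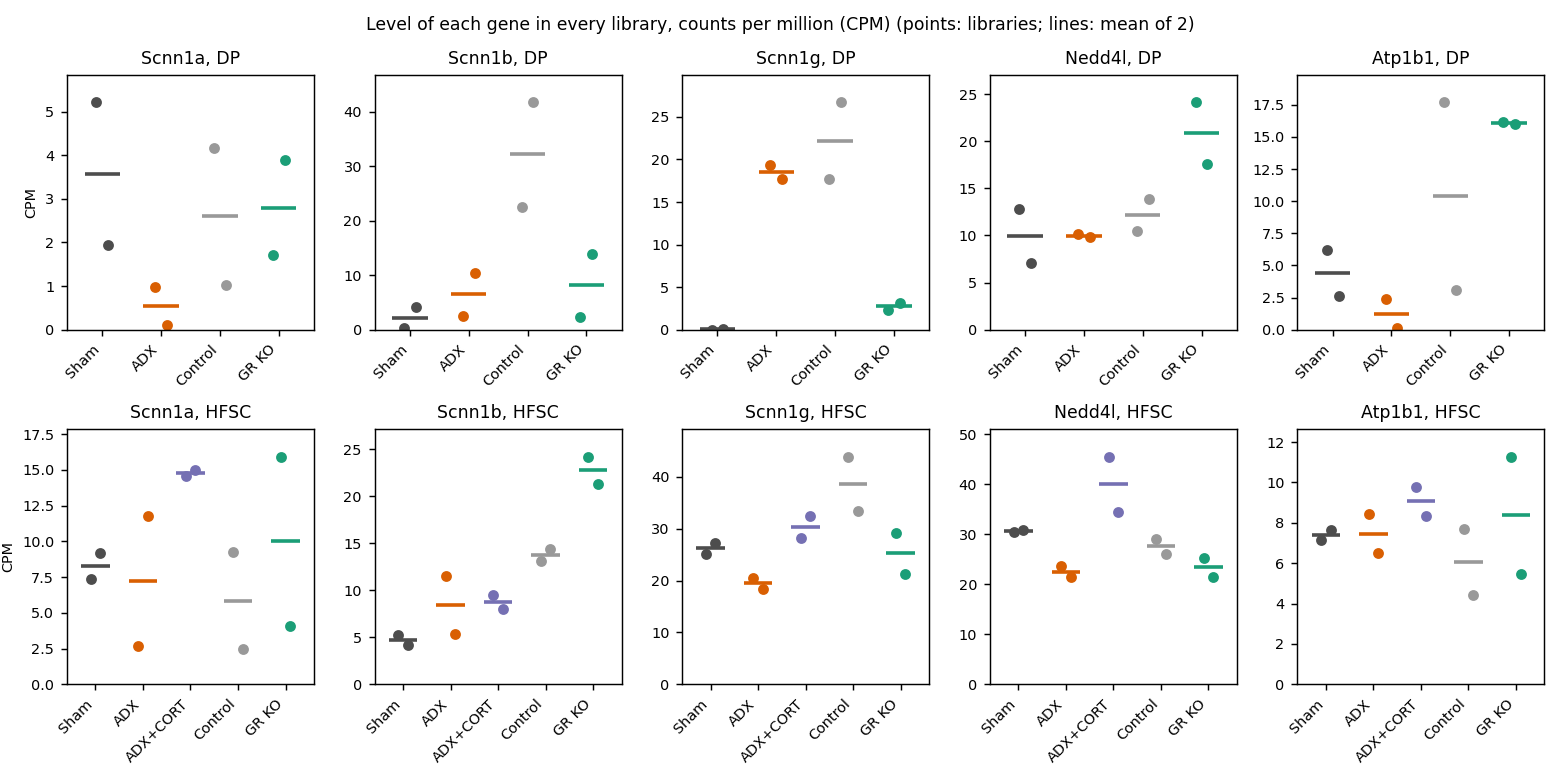
Levels (CPM, each axis from 0) of the 5 genes in every DP library (top) and HFSC library (bottom), where points are libraries and lines the mean of 2. Scnn1g in DP stands at 0 and 0.0805 CPM in Sham, at 17.7 to 26.8 CPM in ADX and Control, and at 2.35 and 3.17 CPM in GR KO.

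As summed reads, 290 in ADX against 1 in Sham correspond to a 441-fold difference in rate (95% counting interval 78.5 to 17462). For GR KO against Control, 69 against 512 reads correspond to a rate ratio of 0.127 (interval 0.0971 to 0.163). These libraries carry no molecular identifiers, so reads are not independent molecules and such intervals and limits cover counting error only. The edgeR values that placed Scnn1g here were a log2 fold change of 8.45 in ADX (adjusted p = 0.0185), which depends on the prior count, and of -3.00 in GR KO (adjusted p = 0.0480). Both edgeR calls are lost when only the groups compared are fitted, with adjusted p = 0.163 and 0.0513. They are also lost without Sham replicate 1 or 2 (0.0644 and 0.0593), without Control replicate 1 or 2 (0.0833 and 0.348) and without GR KO replicate 1 or 2 (0.205 and 0.129). The direction was the same in each. Just outside the choice lay Matn1, a cartilage matrix protein, with log2 fold changes of 6.58 and -4.59 and adjusted p = 0.0915 and 0.0359, and Ramp3, whose larger adjusted p was 0.104. All reads of Scnn1g in DP were assigned to 1 transcript, Scnn1g-201, the only one in the files.

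Scnn1b, the beta subunit, had 0.261 and 4.11 CPM in the Sham libraries of DP, 2.501 and 10.4 CPM in ADX, 22.5 and 41.8 CPM in Control, and 2.35 and 13.95 CPM in GR KO. Both Control libraries lay above all others, and the Sham and ADX libraries overlapped. The log2 fold change was 1.56 (SE 1.15) in ADX (edgeR adjusted p = 0.626) and -1.98 (SE 1.13) in GR KO (adjusted p = 0.453). The signs are those of Scnn1g, but neither difference passed the test. Without the filter on low counts the GR KO value was -2.16 with an edgeR adjusted p = 0.0252. By mean level the order was Control 32.2 ± 13.6 CPM (SD, n = 2), GR KO 8.15 ± 8.20, ADX 6.47 ± 5.61 and Sham 2.18 ± 2.72, and the 3 lower groups did not differ beyond their spread.

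Scnn1a, the alpha subunit, which can carry current without the other subunits, was low throughout DP. Its levels were 5.23 and 1.93 CPM in Sham, 0.973 and 0.117 CPM in ADX, 4.18 and 1.02 CPM in Control, and 1.70 and 3.88 CPM in GR KO. Both ADX libraries lay below all others, and the other 3 groups overlapped. The change in ADX was -2.72 (SE 1.27; edgeR adjusted p = 0.447), on 8 reads against 84, and did not pass the test. In GR KO it was 0.10 (SE 1.14; adjusted p = 1), and its sign turned under DESeq2 (-0.01) and without Control replicate 2 (-0.78) or GR KO replicate 2 (-0.61). Scnn1g and Scnn1a therefore had opposite signs after adrenalectomy.

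Per kilobase of transcript, which allows genes to be set side by side, Control DP held 12.9 ± 5.48 CPM of Scnn1b, 7.43 ± 2.16 of Scnn1g and 0.798 ± 0.685 of Scnn1a (SD, n = 2). In Sham DP the values per kilobase were 0.877 ± 1.09, 0.0135 ± 0.0190 and 1.10 ± 0.715. In ADX DP they were 2.60 ± 2.25, 6.19 ± 0.384 and 0.167 ± 0.186, and in GR KO DP 3.27 ± 3.29, 0.924 ± 0.193 and 0.858 ± 0.473. Scnn1g was the subunit with the highest mean in ADX alone of the 4 DP groups, and the lowest in Sham.

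Nedd4l, whose product removes the channel from the membrane, had 12.8 and 7.09 CPM in the Sham libraries of DP, 10.1 and 9.84 CPM in ADX, 10.5 and 13.9 CPM in Control, and 24.2 and 17.6 CPM in GR KO. Both GR KO libraries were above all others, and the other groups overlapped. The log2 fold change was 0.01 (SE 0.50) in ADX (edgeR adjusted p = 0.999), with a sign that turned without the filter on low counts (-0.02) and without Sham replicate 2 (-0.40) or ADX replicate 1 (-0.08), and 0.78 (SE 0.50) in GR KO (adjusted p = 0.509). The transcripts to which its reads were assigned varied between libraries. Nedd4l-204 had 0 reads in each Sham and ADX library and 76.5, 78.1, 183.4 and 112.2 estimated reads in the Control and GR KO libraries, whereas Nedd4l-208, annotated as a retained intron, had reads in all 8.

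Atp1b1 had 6.18 and 2.66 CPM in the Sham libraries of DP, 2.36 and 0.117 CPM in ADX, 17.7 and 3.07 CPM in Control, and 16.2 and 16.0 CPM in GR KO. Both ADX libraries were below both Sham libraries, and Control spanned a wide range that held GR KO. The log2 fold change was -1.85 (SE 1.14; edgeR adjusted p = 0.562) in ADX and 0.63 (SE 1.04; adjusted p = 0.851) in GR KO. Without Control replicate 2 the second value turned to -0.33.

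In ADX DP, edgeR called 0.017% of the genes tested at an adjusted p under 0.05, and of the 5 genes only Scnn1g, which the rule picked there. Libraries did not overlap for 3 of the 5 (Scnn1a, Scnn1g and Atp1b1), against 43.3% of all genes, and 1 of the 5 had an unadjusted p under 0.05, against 11.7%. In GR KO DP edgeR called 1.54% of genes, again with Scnn1g as the 1 of the 5. There, libraries did not overlap for 3 (Scnn1b, Scnn1g and Nedd4l), against 51.6%, and 1 had an unadjusted p under 0.05, against 15.2%. Since the rule used both contrasts, nothing is read from these counts. DESeq2 likewise called none of the other 4 genes in either DP comparison.

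**Figure D2:**
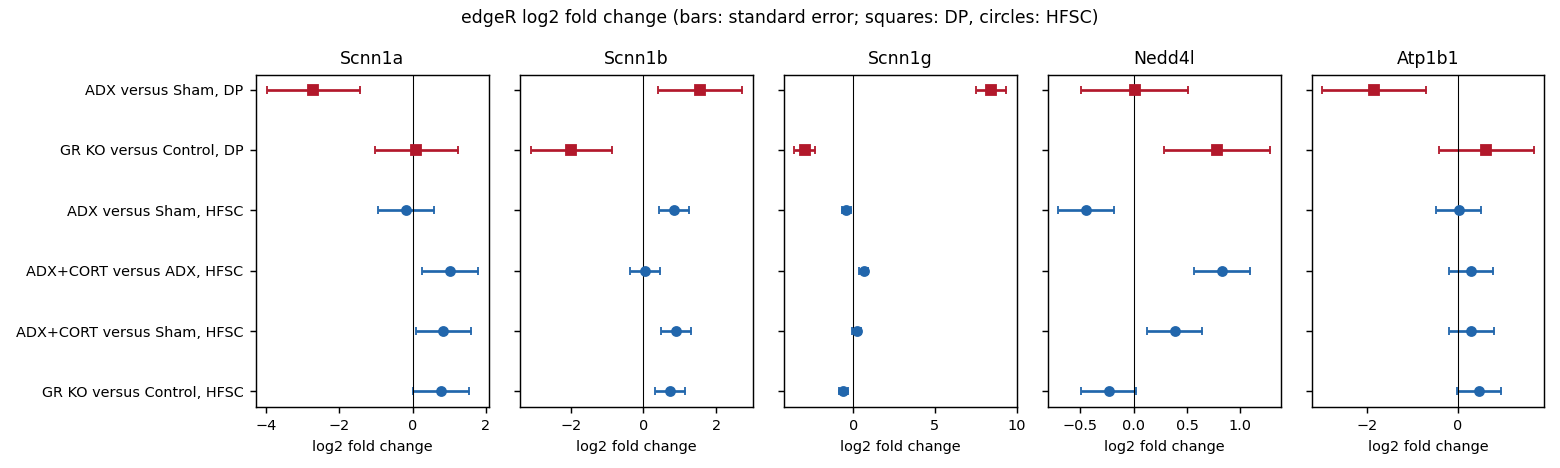
The edgeR log2 fold change (x axis, each panel with its own range) of the 5 genes in the 6 comparisons (rows), with bars for the standard error, squares for DP and circles for HFSC. Scnn1g spans 8.45 to -3.00 in DP and lies between -0.61 and 0.64 in HFSC.

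Markers of other cells were read beside these genes. Sweat gland markers (Krt8, Krt18, Aqp5 and Atp6v1b1), from a tissue that makes ENaC, ranged from 13.4 to 25.2 CPM in sum in Sham, and from 48.9 to 117 CPM in ADX. In Control they summed to 9.39 to 10.8 CPM and in GR KO to 16.6 to 18.02 CPM. This list and Scnn1g were both higher in ADX than in Sham, while in GR KO the sum was higher and Scnn1g lower than in Control. Aqp5 accounted for the higher sum in GR KO, at a mean of 15.2 CPM against 4.60 CPM in Control, and 2 of the 4 genes had higher and 2 lower values there. Aqp5 had no read in Sham replicate 2, and Krt18 none in GR KO replicate 2. The 6 basal epithelial markers summed to 154 to 337 CPM in Sham, 66.6 to 92.8 CPM in ADX, 86.8 to 281 CPM in Control and 51.9 to 373 CPM in GR KO, with Cdh1 at 0 in GR KO replicate 2. The 10 markers of differentiated epidermis summed to 1505 to 5698 CPM in Sham, 348 to 645 CPM in ADX, 1018 to 1894 CPM in Control and 63.4 to 875 CPM in GR KO. Both epithelial lists were lower in ADX than in Sham, as were the values of Scnn1a and Atp1b1, whereas Scnn1g was higher. The 9 HFSC markers, of which Postn and Cd34 are also made by dermal cells, summed in DP to 2987 to 5087 CPM in Sham, 1203 to 1611 CPM in ADX, 760 to 865 CPM in Control and 3221 to 4270 CPM in GR KO, and Lhx2 was at 0 in 1 library each of Sham, ADX and GR KO. This sum lay opposite to Scnn1g in both DP comparisons. Krt15, an epithelial member of that list, had means of 153, 35.4, 59.4 and 36.8 CPM in the same order. Dermal fibroblast markers summed to 20522 to 23861 CPM in Sham and 13116 to 15815 CPM in ADX. Pericyte and smooth muscle markers summed to 272 to 416 CPM in Sham, 895 to 5383 CPM in ADX, 2083 to 8799 CPM in Control and 3036 to 7282 CPM in GR KO. Immune markers summed to 1252 CPM in GR KO replicate 1 and 27.3 CPM in replicate 2, against 93.6 to 177 CPM in Control. Skeletal muscle markers summed to 359 and 20.9 CPM in the same GR KO libraries, against 11.3 to 31.9 CPM in Control. Melanocyte markers summed to 10.1 to 20.1 CPM in Sham and 17.0 to 59.2 CPM in ADX. In Control their sum was 9.76 to 11.1 CPM and in GR KO 3.41 to 4.95 CPM. Of these 4 markers, 3 had higher values in ADX than in Sham, and 4 lower values in GR KO than in Control. Hair matrix and shaft markers summed to 8.86 to 19.9 CPM in Sham and 29.8 to 37.7 CPM in ADX. Their sums in Control, 16.1 to 22.9 CPM, and GR KO, 8.17 to 20.3 CPM, overlapped. The part of these cells in the values of the 5 genes was not tested.

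**Figure D3:**
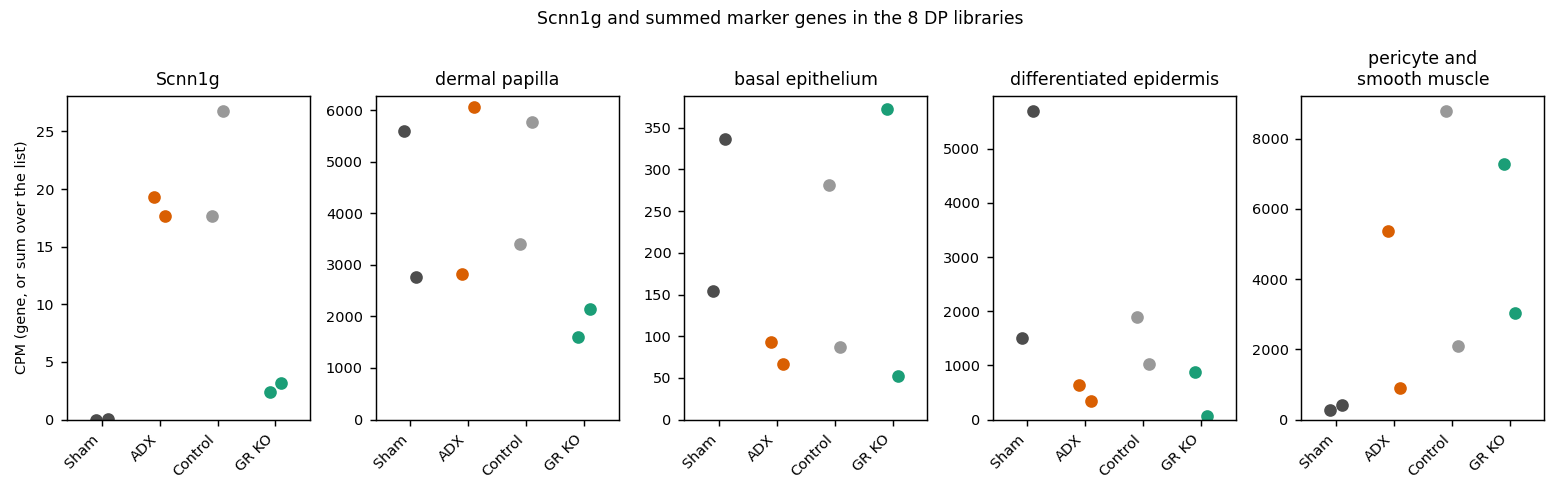
Levels in the 8 DP libraries (points) of Scnn1g and the summed markers of 4 cell types (CPM, each axis from 0). Scnn1g is near 0 in Sham, while differentiated epidermis markers stand there at 1505 and 5698 CPM. The sum of the DP markers is lowest in GR KO, at 1604 and 2151 CPM, although 6 of the 10 had higher values there than in Control.

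In HFSC, which are epithelial, all 5 genes had reads in every library. HFSC and DP counts were made and scaled separately and are not compared by a test. Scnn1g stood at 25.2 and 27.3 CPM in Sham HFSC, 20.5 and 18.4 CPM in ADX, 28.2 and 32.5 CPM in ADX+CORT, 43.9 and 33.4 CPM in Control, and 29.2 and 21.3 CPM in GR KO. Both ADX libraries were the lowest of all 10, and both Control libraries the highest. In order, the means were Control 38.7 ± 7.48 CPM (SD, n = 2), ADX+CORT 30.4 ± 3.04, Sham 26.2 ± 1.46, GR KO 25.3 ± 5.57 and ADX 19.5 ± 1.49. Sham and GR KO overlapped, and so did GR KO and ADX+CORT.

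Scnn1g in HFSC was not used in choosing the genes. Its log2 fold change was -0.43 (SE 0.28) in ADX (edgeR adjusted p = 0.487), 0.64 (SE 0.28) after corticosterone, ADX+CORT against ADX (adjusted p = 0.229), 0.21 (SE 0.28) in ADX+CORT against Sham (adjusted p = 0.969), and -0.61 (SE 0.28) in GR KO (adjusted p = 0.370). None passed the test. ADX and its 2 comparisons share libraries, so the opposite signs with and without corticosterone are not independent. The value in ADX had the opposite sign to that in DP, and the value in GR KO the same sign. No difference between the cell types was tested. In these libraries the HFSC marker sum was lower in ADX than in Sham and ADX+CORT, and lower in GR KO than in Control, as was Scnn1g. Of the 9 HFSC markers, 8 were lower and 1 higher in ADX than in Sham. In GR KO the list was mixed, with 6 lower and 3 higher than in Control and a median log2 fold change of -0.24. Markers of differentiated epidermis summed to 3202 to 4978 CPM in Sham, 6294 to 7151 CPM in ADX, 6712 to 9068 CPM in ADX+CORT, 3015 to 3563 CPM in Control and 4289 to 9335 CPM in GR KO. Basal epithelial markers summed to 13665 to 14231, 9907 to 11962, 12241 to 13530, 13966 to 16980 and 8347 to 14128 CPM in the same order, and no marker of either list was at 0. The 4 immune markers summed to 36.4 to 55.8 CPM in Sham, 66.2 to 113 CPM in ADX and 39.3 to 97.1 CPM in ADX+CORT. In Control their sum was 1667 to 1842 CPM and in GR KO 1729 to 2334 CPM, so the 2 experiments differed in it. The part of these shifts in the HFSC values of the 5 genes was not tested.

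Scnn1b in HFSC stood at 5.29 and 4.17 CPM in Sham, 11.5 and 5.38 CPM in ADX, 9.50 and 7.98 CPM in ADX+CORT, 13.1 and 14.4 CPM in Control, and 24.2 and 21.3 CPM in GR KO. The GR KO libraries were the highest of all 10 and the Sham libraries the lowest. The log2 fold change was 0.83 (SE 0.42; edgeR adjusted p = 0.365) in ADX, 0.05 (SE 0.41; adjusted p = 0.976) for ADX+CORT against ADX, 0.88 (SE 0.42; adjusted p = 0.806) in ADX+CORT against Sham, and 0.73 (SE 0.40; adjusted p = 0.485) in GR KO. The value for ADX+CORT against ADX turned to -0.41 without ADX replicate 2 and to -0.08 without ADX+CORT replicate 1. In ADX and in GR KO the beta and gamma subunits thus had opposite signs, and neither subunit passed the test in either comparison. The order of means ran from GR KO, 22.7 ± 2.07 CPM (SD, n = 2), through Control, 13.7 ± 0.945, ADX+CORT, 8.74 ± 1.07, and ADX, 8.46 ± 4.35, to Sham, 4.73 ± 0.792, with ADX and ADX+CORT overlapping.

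Scnn1a in HFSC stood at 7.34 and 9.18 CPM in Sham, 2.67 and 11.8 CPM in ADX, 14.5 and 15.0 CPM in ADX+CORT, 9.25 and 2.46 CPM in Control, and 15.9 and 4.07 CPM in GR KO. The ADX+CORT libraries were close together, while the 2 libraries of ADX, of Control and of GR KO lay far apart, so the neighbours in the order overlap. Means were 14.8 ± 0.317 CPM (SD, n = 2) in ADX+CORT, 9.998 ± 8.39 in GR KO, 8.26 ± 1.30 in Sham, 7.22 ± 6.42 in ADX and 5.86 ± 4.80 in Control. Log2 fold changes were -0.19 (SE 0.76) in ADX, 1.03 (SE 0.76) in ADX+CORT against ADX, 0.84 (SE 0.76) in ADX+CORT against Sham and 0.78 (SE 0.76) in GR KO, with edgeR adjusted p = 0.9505, 0.502, 0.930 and 0.754. Without ADX replicate 1 the first turned to 0.51, and without GR KO replicate 1 the last turned to -0.52.

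Nedd4l in HFSC stood at 30.5 and 30.9 CPM in Sham, 23.7 and 21.4 CPM in ADX, 45.6 and 34.5 CPM in ADX+CORT, 29.1 and 26.1 CPM in Control, and 25.3 and 21.6 CPM in GR KO. Both ADX+CORT libraries were above all others, and both ADX libraries were below both Sham libraries. The largest difference was ADX+CORT against ADX, 0.83 (SE 0.26), with an edgeR adjusted p = 0.113, which did not pass. ADX against Sham gave -0.45 (SE 0.26; adjusted p = 0.445), ADX+CORT against Sham 0.38 (SE 0.26; adjusted p = 0.869), and GR KO against Control -0.24 (SE 0.26; adjusted p = 0.794). In order, the means were 40.0 ± 7.85 CPM (SD, n = 2) in ADX+CORT, 30.7 ± 0.225 in Sham, 27.6 ± 2.08 in Control, 23.4 ± 2.64 in GR KO and 22.6 ± 1.62 in ADX, and GR KO and ADX overlapped.

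Atp1b1 varied little between HFSC groups. It stood at 7.17 and 7.63 CPM in Sham, 8.44 and 6.49 CPM in ADX, 9.76 and 8.36 CPM in ADX+CORT, 7.72 and 4.43 CPM in Control, and 11.3 and 5.46 CPM in GR KO. The groups overlapped except ADX+CORT against Sham and against Control. Log2 fold changes were 0.01 (SE 0.49) in ADX, 0.28 (SE 0.49) in ADX+CORT against ADX, 0.29 (SE 0.49) in ADX+CORT against Sham and 0.47 (SE 0.49) in GR KO, with edgeR adjusted p = 1, 0.820, 0.986 and 0.778. The first turned to -0.02 with a replicate block and to -0.19 without ADX replicate 1, and the last turned to -0.15 without GR KO replicate 1.

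Per kilobase, Sham HFSC held 8.77 ± 0.487 CPM of Scnn1g, 3.56 ± 0.0260 of Nedd4l, 2.40 ± 0.106 of Atp1b1, 2.00 ± 0.315 of Scnn1a and 1.80 ± 0.301 of Scnn1b (SD, n = 2). Scnn1g was thus the highest of the subunits there. In GR KO HFSC the values were 8.45 ± 1.86 of Scnn1g and 8.64 ± 0.784 of Scnn1b, which did not differ beyond their spread.

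No HFSC comparison called any of the 5 genes by edgeR or by DESeq2. In ADX edgeR called 0.295% of genes, the libraries of 3 of the 5 (Scnn1b, Scnn1g and Nedd4l) did not overlap against 49.4% of genes, and none of the 5 had an unadjusted p under 0.05, against 15.2%. In ADX+CORT against ADX edgeR called 0% of genes, 3 of the 5 (Scnn1a, Scnn1g and Nedd4l) did not overlap against 52.6%, and 2 (Nedd4l and Scnn1g) had an unadjusted p under 0.05, against 19.3%. In ADX+CORT against Sham edgeR called 0% as well. All 5 were higher with no overlap, against 40.7% of genes that did not overlap in either direction, and none had an unadjusted p under 0.05, against 6.09%. In GR KO edgeR called 0.985%, 3 of the 5 (Scnn1b, Scnn1g and Nedd4l) did not overlap against 38.5%, and 1 (Scnn1g) had an unadjusted p under 0.05, against 13.1%.

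The other genes of sodium transport were read from 9 lists of 71 genes, the 5 included, of which 66 were tested in DP and 57 in HFSC. In ADX DP, 1 listed gene was called by edgeR (Scnn1g), 9 of the 66 had an unadjusted p under 0.05, near the 11.7% of all genes, and DESeq2 called 5 (Scnn1g, Slc8a1, Hsd11b1, Tsc22d3 and Cul3), against 505 of 23463 genes. The median log2 fold change of the listed genes was 0.00, against 0.08 over all genes tested. In GR KO DP, edgeR called 3, all lower (Nr3c1, Tsc22d3 and Scnn1g), against 1.54% of all genes. There, 17 of the 66 had an unadjusted p under 0.05, against 15.2%, and DESeq2 called 8, against 1553 of 23463 genes. The GR KO counts include Nr3c1, which is the deleted gene, and both sets of counts include Scnn1g, which the rule picked there. Nothing about sodium transport genes as a set is therefore read from them. The median of the listed genes in GR KO DP was 0.14, against 0.17 over all genes.

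Tsc22d3, a glucocorticoid-induced gene whose product acts on ENaC turnover, fell in GR KO DP from 2381 and 2754 CPM in Control to 311 and 459 CPM, by 2.74 on the log2 scale (SE 0.39; edgeR adjusted p = 0.0212). In ADX DP it stood at 189 and 306 CPM, against 896 and 515 CPM in Sham. The value of -1.51 (SE 0.37) did not pass the main edgeR fit (adjusted p = 0.230). DESeq2 called the gene there (-1.45, adjusted p = 0.00568), as did edgeR without the filter on low counts (-1.54, adjusted p = 2.87e-05). Unlike Scnn1g, it thus had the same sign in both DP comparisons. In HFSC, edgeR without the filter on low counts called Tsc22d3 lower in ADX (-0.98, adjusted p = 0.00912) and in GR KO (-1.07, adjusted p = 0.00225). Neither the main edgeR fit nor DESeq2 called it in HFSC. Without Control replicate 2, no listed gene was called in GR KO DP.

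Of the hormone enzymes and receptors, Hsd11b1, which regenerates active corticosterone, had 230 and 305 CPM in the Sham libraries of DP against 81.6 and 78.5 CPM in ADX, without overlap (-1.74, SE 0.31; edgeR adjusted p = 0.157). DESeq2 called it there (-1.66, adjusted p = 0.000164), as did edgeR without the filter on low counts (-1.76, adjusted p = 1.73e-05). The mineralocorticoid receptor gene Nr3c2 had a mean of 7.34 CPM in Sham DP and 10.4 CPM in ADX (adjusted p = 0.810). Nr3c2 was chosen after its values were seen, as were Sgk1, Slc12a1, Slc8a1 and Fxyd2 below. Hsd11b2, which inactivates corticosterone, stood at 1.39 CPM or less in each DP library.

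Among kinases and ubiquitin ligases that act on transport, Sgk1 had 91.3 and 32.4 CPM in the Control libraries of DP against 185 and 237 CPM in GR KO (1.77, SE 0.49; edgeR adjusted p = 0.111). Sgk3, a related kinase, gave 0.97 (SE 0.39; adjusted p = 0.267) in the same comparison. Cul3, the scaffold of the ligase that removes WNK kinases, had 153 and 131 CPM in the Sham libraries and 74.5 and 55.9 CPM in ADX (-1.12, SE 0.26; adjusted p = 0.215). None of these passed the main edgeR fit, while DESeq2 called Sgk1 in GR KO and Cul3 in ADX. Without the filter on low counts edgeR also called Sgk1 in GR KO (1.59, adjusted p = 0.000251) and Cul3 in ADX (-1.14, adjusted p = 0.0348).

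Of the sodium pump genes in DP, Fxyd6, a small regulator of the pump, stood at 54.7 and 55.4 CPM in Control and at 258 and 118 CPM in GR KO (1.77, SE 0.39; edgeR adjusted p = 0.0556). Fxyd1, the regulator phospholemman, went the other way, from 372 and 407 CPM to 129 and 201 CPM (-1.24, SE 0.29; adjusted p = 0.0713). Both were called by DESeq2 and neither by the main edgeR fit. With median-of-ratios scaling edgeR called Fxyd1 (adjusted p = 0.0484). Without the filter on low counts edgeR called both, with adjusted p = 0.000546 for Fxyd1 and 0.00025 for Fxyd6. Fxyd3, at a mean of 35.7 CPM in Control and 10.1 CPM in GR KO, gave -1.83 (SE 0.68; adjusted p = 0.231). It was called by edgeR without the filter on low counts (-1.975, adjusted p = 0.00194). Atp1b3, another beta subunit, gave 0.31 (SE 0.29; adjusted p = 0.688).

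Among transporters and channel proteases in DP, the sodium-calcium exchanger gene Slc8a1 had, like Scnn1g, almost nothing in Sham. It had no read in either Sham library and stood at 6.25 and 1.76 CPM in ADX, with an edgeR adjusted p = 0.183 and a DESeq2 adjusted p = 0.000707. The edgeR fit without the filter on low counts called Slc8a1 in ADX (8.39, adjusted p = 3.81e-05). Slc12a1, best known as the cotransporter of the kidney's loop of Henle, stood at 27.4 and 13.1 CPM in Sham, 37.1 and 80.4 CPM in ADX, 35.5 and 32.3 CPM in Control, and 14.3 and 2.46 CPM in GR KO. Its log2 fold changes of 1.54 (adjusted p = 0.437) and -2.02 (adjusted p = 0.208) had the signs of Scnn1g and did not pass the main edgeR fit. Without the filter on low counts edgeR called it in ADX (1.49, adjusted p = 0.0361) and in GR KO (-2.16, adjusted p = 0.000147). In GR KO it was called by DESeq2 (-2.11, adjusted p = 0.0324) and by edgeR without GR KO replicate 1 (-3.78, adjusted p = 0.0438). Tmprss4, a membrane protease that can activate ENaC, stood at 14.3 and 66.0 CPM in Sham and 5.98 and 2.34 CPM in ADX (-3.28, SE 1.31; adjusted p = 0.375). It was called in ADX by edgeR without the filter on low counts (-3.26, adjusted p = 6.76e-05).

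**Figure D4:**
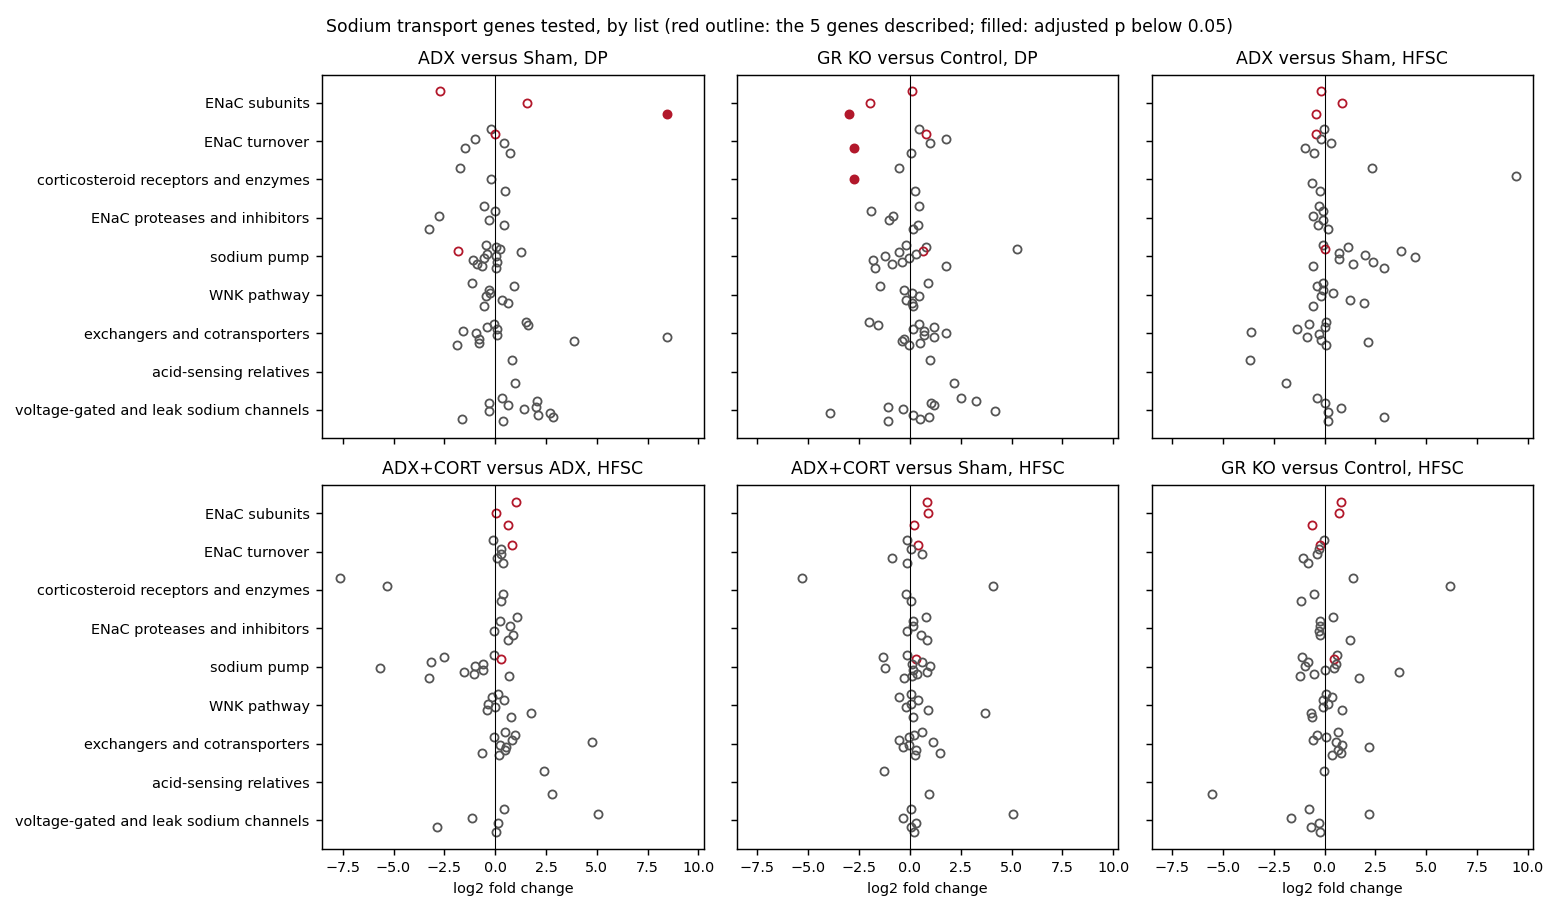
The edgeR log2 fold change (x axis) of each sodium transport gene tested, by list (rows), in the 6 comparisons (panels). Red outlines are the 5 genes described and filled points have an adjusted p under 0.05, namely Scnn1g in ADX DP and Nr3c1, Tsc22d3 and Scnn1g in GR KO DP.

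In HFSC edgeR called 0 of the 57 listed genes in each of the 4 comparisons. At an unadjusted p under 0.05 there were 10 in ADX (against 15.2% of all genes), 13 in ADX+CORT against ADX (19.3%), 5 in ADX+CORT against Sham (6.09%) and 11 in GR KO (13.1%). DESeq2 called 4, 5, 0 and 2 of them, and 768, 1278, 53 and 682 of all 15231 genes. Median log2 fold changes were -0.07, 0.25, 0.17 and -0.07, and those of all genes were 0.00, 0.00, 0.01 and 0.00.

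Of the 12 sodium pump genes tested in ADX HFSC, edgeR called none and 5 had an unadjusted p under 0.05, against 15.2% of all genes. Fxyd1 stood at 1.88 and 3.04 CPM in Sham and 10.8 and 8.48 CPM in ADX (1.97, SE 0.49; edgeR adjusted p = 0.0923). Fxyd3 stood at 601 and 540 CPM in Sham, 1058 and 837 CPM in ADX, and 589 and 659 CPM in ADX+CORT. Its log2 fold change was 0.73 (SE 0.22; adjusted p = 0.140) in ADX and -0.60 (SE 0.22; adjusted p = 0.159) in ADX+CORT against ADX. Atp1b3 stood at 469 and 512 CPM, 867 and 712 CPM, and 493 and 559 CPM in the same groups, with 0.69 (SE 0.23; adjusted p = 0.177) and -0.59 (SE 0.23; adjusted p = 0.181). For both, the ADX libraries lay above those of the other groups of the surgery experiment, whose comparisons share the ADX libraries. Slc12a7, a potassium-chloride cotransporter, gave -1.35 (SE 0.46; adjusted p = 0.183) in ADX. None passed the main edgeR fit, while DESeq2 called Fxyd1, Fxyd3 and Atp1b3 in ADX. Without the filter on low counts edgeR called Fxyd1 (1.98, adjusted p = 0.0152) and Fxyd2 (4.45, adjusted p = 0.00083) in ADX. That fit also called Fxyd2 in ADX+CORT against ADX (-5.66, adjusted p = 4.11e-05).

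With corticosterone, the channel proteases St14 and Furin had higher values that did not pass the main edgeR fit. St14, the protease matriptase, stood at 37.3 and 41.5 CPM in ADX and 78.4 and 66.3 CPM in ADX+CORT (0.88, SE 0.23; edgeR adjusted p = 0.0744). Furin, which cleaves the alpha and gamma subunits, stood at 20.2 and 35.3 CPM in ADX and 53.3 and 63.3 CPM in ADX+CORT (1.07, SE 0.34; adjusted p = 0.114). Their list of 6 genes also holds the protease inhibitors Spint1 and Spint2. Of the 6, 5 had a positive value and 3 had an unadjusted p under 0.05, against 19.3% of all genes. Over all listed genes 13 of 57 had such a p. None of the 6 was called by the main edgeR fit. St14 and Furin were called by DESeq2 (adjusted p = 0.0136 and 0.0450), as were 1278 of the 15231 genes tested. Without the filter on low counts edgeR also called St14 and Furin (adjusted p = 0.0366 and 0.0180). Slc12a4, a potassium-chloride cotransporter, gave 0.98 (SE 0.31; adjusted p = 0.114), and Sgk3 gave 0.60 (SE 0.20; adjusted p = 0.721) in ADX+CORT against Sham. In ADX+CORT against ADX, DESeq2 (adjusted p = 0.0322) and edgeR without the filter on low counts (adjusted p = 0.00737) called Slc12a4.

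In GR KO HFSC, Fxyd6 stood at 242 and 307 CPM in Control and 131 and 105 CPM in GR KO (-1.22, SE 0.35; edgeR adjusted p = 0.127), the opposite sign to DP. Usp2, a deubiquitinase that acts on ENaC, gave -0.80 (SE 0.31; adjusted p = 0.268), and Tmprss4 gave 1.23 (SE 0.49; adjusted p = 0.297). Hsd11b2 stood at 0.409 and 0 CPM in Control and 1.87 and 25.9 CPM in GR KO (adjusted p = 0.199), so that its difference rests on GR KO replicate 2. DESeq2 called Fxyd6 (-1.21, adjusted p = 0.0127). Without the filter on low counts edgeR called Fxyd6 (-1.22, adjusted p = 0.000214), Tmprss4 (1.23, adjusted p = 0.000891) and Hsd11b2 (6.16, adjusted p = 2.84e-07).

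The genes whose pattern was most like that of Scnn1g over the 8 DP libraries, by Pearson's correlation of log2 CPM among 11642 candidates, were Matn1 (r = 0.94), Mrpl51 (0.94), Zfp595 (0.93), Nme2 (0.92) and Ypel2 (0.91). Matn1 stood at 0.0871 and 0.161 CPM in Sham, 7.92 and 18.05 CPM in ADX, 14.6 and 22.4 CPM in Control, and 0.406 and 1.11 CPM in GR KO, the same order of groups as Scnn1g. For Scnn1a over the 10 HFSC libraries, among 10529 candidates, they were Wwc2 (0.96), Sema4g (0.92), Perm1 (0.91), Epb41 (0.90) and Cbfa2t2 (0.90), each with its highest mean in ADX+CORT. These are descriptions over libraries that share their preparation. Depth differed between libraries, and in DP it was lowest in both ADX libraries.

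The neighbours of Scnn1g on chromosome 7 were read in the same DP fits. Usp31, on its other side from Scnn1b, gave -0.23 (SE 0.42) in ADX and -0.81 (SE 0.42) in GR KO, with edgeR adjusted p = 0.861 and 0.406. Cog7, which overlaps Scnn1b, gave -0.14 (SE 0.55) and 0.41 (SE 0.54), with adjusted p = 0.944 and 0.797. Gga2, a trafficking adaptor, rose in GR KO by 1.86 (SE 0.35; adjusted p = 0.0392), opposite in sign to Scnn1g, and gave 0.67 (SE 0.34; adjusted p = 0.485) in ADX. Of the 5 genes farther on, Ndufab1 (0.25 in ADX and -0.64 in GR KO) and Palb2 (0.53 and -0.21) had the signs of Scnn1g. Ears2 (-0.86 and 0.12) and Ubfd1 (-0.58 and 0.67) had the opposite signs, and Dctn5 (-0.42 and -0.21) was negative in both. None of these 5 passed by edgeR, with adjusted p from 0.293 to 0.984.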

How the data were processed

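RNA-seq was deposited for 8 DP and 10 HFSC libraries, 2 per group, made with SMART-Seq v4 and Nextera XT per the labels' protocols. The DP files hold estimated counts for each transcript, which the authors obtained with Salmon (version not given in the sources used here) on mm10 per the submitters' processing notes. The HFSC files hold whole-number counts of reads for each gene. The authors obtained them, per the file headers, with featureCounts 1.6.1 on exons, requiring a mapping quality of 30 or more, after Trim Galore 0.4.1 and STAR 2.5.3 per the submitters' processing notes, which also name DESeq2 1.22.2.

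The 134967 DP transcripts were summed to symbols through the GENCODE annotation of GRCm38 and rounded. A match failed for 150, holding at most 0.0752% of a library. In 2 HFSC files, 27 gene names stored as dates were restored from coordinates. DP and HFSC were fitted apart in edgeR 4.0.16 (R 4.3.3), with 1 mean for each group, with TMM scaling, the default filter (23463 DP and 15231 HFSC genes kept), the two-sided quasi-likelihood test and Benjamini-Hochberg adjustment at 0.05. Biological variation between replicates (coefficient of variation) came to 54.0% for DP and 38.7% for HFSC, so a modest change is hard to call with 2 libraries. Standard errors come from the F statistic. The steps were tested on simulated data.

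The same steps were repeated without the filter on low counts, with median-of-ratios scaling, with DESeq2 1.42.0, on the compared groups alone, with a replicate block, and with each library left out. Crossed replicate numbers were added after seeing the data. The 5 genes and all lists were chosen with earlier results of these data known. Besides the 5, the text names listed genes past the threshold, and in each comparison the 4 with the smallest p-value among those whose higher group averaged 5 CPM or more. It also names the 5 genes most correlated with Scnn1g in DP and with Scnn1a in HFSC at that level. Marker lists for 14 cell types were summed. Those of dermal papilla, fibroblast, HFSC, epidermal, hair matrix and shaft, sweat gland, pericyte or smooth muscle, melanocyte, immune and skeletal muscle cells are given. They were chosen after their values were seen.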

Additional observations from a re-analysis of the deposited data

Results flagged for a closer look

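In 10 cases, every library of the changed group moved one way in DP and the opposite way in HFSC. The difference between cell types was not tested, since their counts were made separately. In a single comparison of these, groups of 2 fail to overlap for 38.5% to 51.6% of all genes, in either direction. The share of all genes without overlap in both cell types and with opposite signs was not computed. Nothing is therefore read from the number of cases. After adrenalectomy, Scnn1g had log2 fold changes of 8.45 in DP, where it was selected on that value, and -0.43 in HFSC. In the same comparison Atp1b3 gave -0.38 in DP and 0.69 in HFSC, Fxyd3 gave -1.11 and 0.73, Hsd11b1 gave -1.74 and 2.33, and Usp2 gave 0.71 and -0.53. The HFSC value of Hsd11b1 rests on means of 1.32 CPM in ADX and 0.259 CPM in Sham. After receptor deletion, Scnn1b gave -1.98 in DP and 0.73 in HFSC, Nedd4l gave 0.78 and -0.24, Fxyd6 gave 1.77 and -1.22, Hsd11b1 gave -0.56 and 1.40, and Sgk3 gave 0.97 and -0.38.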

How the results depend on the processing

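Counts of calls depended on the settings, and the cause was not tested. Over all genes, edgeR called 4 in ADX DP, 361 in GR KO DP, 45 in ADX HFSC, 0 in ADX+CORT against ADX, 0 in ADX+CORT against Sham and 150 in GR KO HFSC. In that order DESeq2 called 505, 1553, 768, 1278, 53 and 682, and the fit with no filter on low counts called 894, 1456, 888, 1309, 184 and 840. With only the groups compared the counts were 0, 142, 93, 0, 2 and 155. Leaving out a library gave 1 to 12, 19 to 226, 0 to 235, 0 to 549, 0 to 4 and 5 to 336. Of the listed sodium transport genes edgeR called 1, 3, 0, 0, 0 and 0, DESeq2 5, 8, 4, 5, 0 and 2, and the fit without the filter 8, 10, 5, 5, 0 and 4. With only the groups compared they were 0, 2, 0, 0, 0 and 0, and leaving out a library gave 0 to 1, 0 to 4, 0 to 1, 0 to 2, 0 and 0. The 2 listed calls in ADX+CORT against ADX came without ADX replicate 2.

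With the replicate block the counts over all genes were 10, 470, 9, 0, 0 and 137, and over listed genes 1, 3, 0, 0, 0 and 0. Same-numbered libraries deviated together with a correlation of -0.15 in ADX DP, 0.22 in GR KO DP and -0.02 to 0.04 in HFSC, so the numbers were not taken to pair samples. The crossed replicate block called 62 genes in ADX DP, 2 of them listed.

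Some small values among the 5 genes changed sign. Nedd4l in ADX DP was -0.019 without the filter, and -0.40 to 0.45 with a library left out (negative without Sham replicate 2 or ADX replicate 1). Scnn1a in GR KO DP was -0.0091 with DESeq2, -0.0097 with median-of-ratios scaling, -0.088 without the filter, -0.042 with only the groups compared, and -0.78 to 1.28 with a library left out (negative without Control or GR KO replicate 2). Atp1b1 in GR KO DP was -0.33 to 2.23 (negative without Control replicate 2). In HFSC, leaving out a library gave -1.62 to 0.51 for Scnn1a in ADX (positive without ADX replicate 1), and -0.19 to 0.20 for Atp1b1 in ADX (negative without Sham or ADX replicate 1), which was -0.021 with the replicate block. Scnn1b in ADX+CORT against ADX ranged from -0.41 to 0.70 (negative without ADX replicate 2 or ADX+CORT replicate 1). In GR KO HFSC, Scnn1a ranged from -0.52 to 2.02 and Atp1b1 from -0.15 to 0.92 (negative without GR KO replicate 1). Where 1 library of a group remained, its spread was taken from the other groups. In DP, Scnn1a and Atp1b1 in ADX rest on 8 and 18 reads, which limits both.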
